A study of Mus musculus with 12 samples.

Results

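Enteroendocrine cells are the scattered hormone cells of the gut epithelium. They were followed here in whole mouse colon through 31 genes chosen by name: peptide hormones, enzymes and transporters of amine hormones, secretory granule proteins, transcription factors, and receptors and channels. All 31 were found among the 54532 genes of the deposited table, and 30 of them were tested among 24102 genes with enough reads. Ucn3, a peptide of the corticotropin-releasing hormone family, had 0 to 3 counts per library and was not tested. The libraries were polyA RNA of total colon in 4 groups of 3. Tmem173fl/fl mice carry floxed copies of Tmem173, the gene of the cytosolic DNA sensor adaptor STING, and no Cre. Tmem173iΔmye mice are Tmem173fl/fl Lyz2-CreERT2, in which tamoxifen switches on a Cre driven from the myeloid gene Lyz2. All groups were given tamoxifen 5 times at 6 to 8 weeks of age, on a C57BL/6N background, and 1 group of each genotype then received dextran sulfate sodium (DSS), a polymer that injures the colon epithelium, for 7 days. The comparisons asked how DSS changed these genes in each genotype, whether genotype changed them in untreated or colitic mice, and whether the DSS effect differed between genotypes (interaction).

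Enteroendocrine cells arise from crypt progenitors that switch on the transcription factor Neurog3, followed by Neurod1 and other factors that set which hormone a cell makes. In the colon the main kinds are L cells, which release proglucagon products, peptide YY and insulin-like peptide 5, enterochromaffin cells, which make serotonin, and D cells, which release somatostatin. Hormones are cut from precursors and stored in dense-core granules. Enteric neurons of the gut wall use many of the same granule proteins and some of the same peptides. In whole tissue, fewer cells of a type and less RNA per cell cannot be told apart.

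Library totals ran from 13823237 to 18718915 counts. Epithelial markers were abundant in every library (10 genes, summed 6070 to 19400 CPM, which are TMM-scaled counts relative to each library's total). Tmem173 stood at 14.4 to 24.5 CPM in untreated Tmem173fl/fl and 14.6 to 21.3 CPM in untreated Tmem173iΔmye libraries, and the colitic ranges were 37.6 to 44.0 and 23.8 to 47.8 CPM, so whole tissue did not separate the genotypes by this gene. Several libraries stood apart. Untreated replicate 3 of each genotype and colitic Tmem173iΔmye replicate 5 carried the female Xist pattern and the other libraries the male one. Replicate 5 also held the most RNA of Hoxd10 to Hoxd13, genes of the posterior body (225 CPM summed, against 5.27 to 118 CPM in the others). Pancreatic acinar RNA varied widely within groups (10 genes, summed 107 to 12530 CPM), while 6 islet beta cell genes summed to at most 4.64 CPM.

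In untreated Tmem173fl/fl colon, in FPKM, which corrects for gene length, the most abundant members were Insl5 at 71.1 ± 18.6 (SD, n = 3 for all values of this kind) and Pyy at 66.8 ± 15.6, both hormones of colonic L cells. Cpe, the carboxypeptidase that trims hormone precursors, followed at 40.7 ± 9.20, and Gcg, the proglucagon gene, at 29.9 ± 11.2. Insl5 and Pyy differed by less than their spread, and Cpe and Gcg by less than the larger of their SDs. The granins Chgb and Chga, which pack granules, stood at 17.7 ± 1.99 and 10.3 ± 1.58, Ddc, the decarboxylase that makes serotonin from its precursor, at 14.8 ± 3.78, and Sst, somatostatin, at 9.87 ± 2.38. Chgb and Ddc, and likewise Chga and Sst, did not differ beyond their spread. The 9 transcription factors were far lower, from 0.0518 for Pax6 to 0.870 for Neurod1. Within a group, the median member varied between libraries by a coefficient of variation of 27.4% in untreated Tmem173fl/fl, 26.7% in untreated Tmem173iΔmye, 28.2% in colitic Tmem173fl/fl and 35.2% in colitic Tmem173iΔmye mice.

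DSS in Tmem173fl/fl mice moved these genes in both directions. A gene counted as called when its adjusted p in edgeR was under 0.05 and its log2 fold change was 1 or more in either direction. Of the 30 members tested, 9 were called, 6 higher and 3 lower. Over all genes tested 22.5% were called, 14.9% higher and 7.61% lower, so the members' share was not far from that of the whole table. DESeq2 called 10 members, and 23.1% of the genes it gave an adjusted p. The groups did not overlap for 16 of the 30 (10 higher, 6 lower), against 49.3% of all genes. The median member had a log2 fold change of 0.28, against 0.03 over all genes. The members that rose were Chga, Chgb, Pcsk1n, Sst, Nts and Isl1, and those that fell were Insl5, Ddc and Gpr119.

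**Figure D1:**
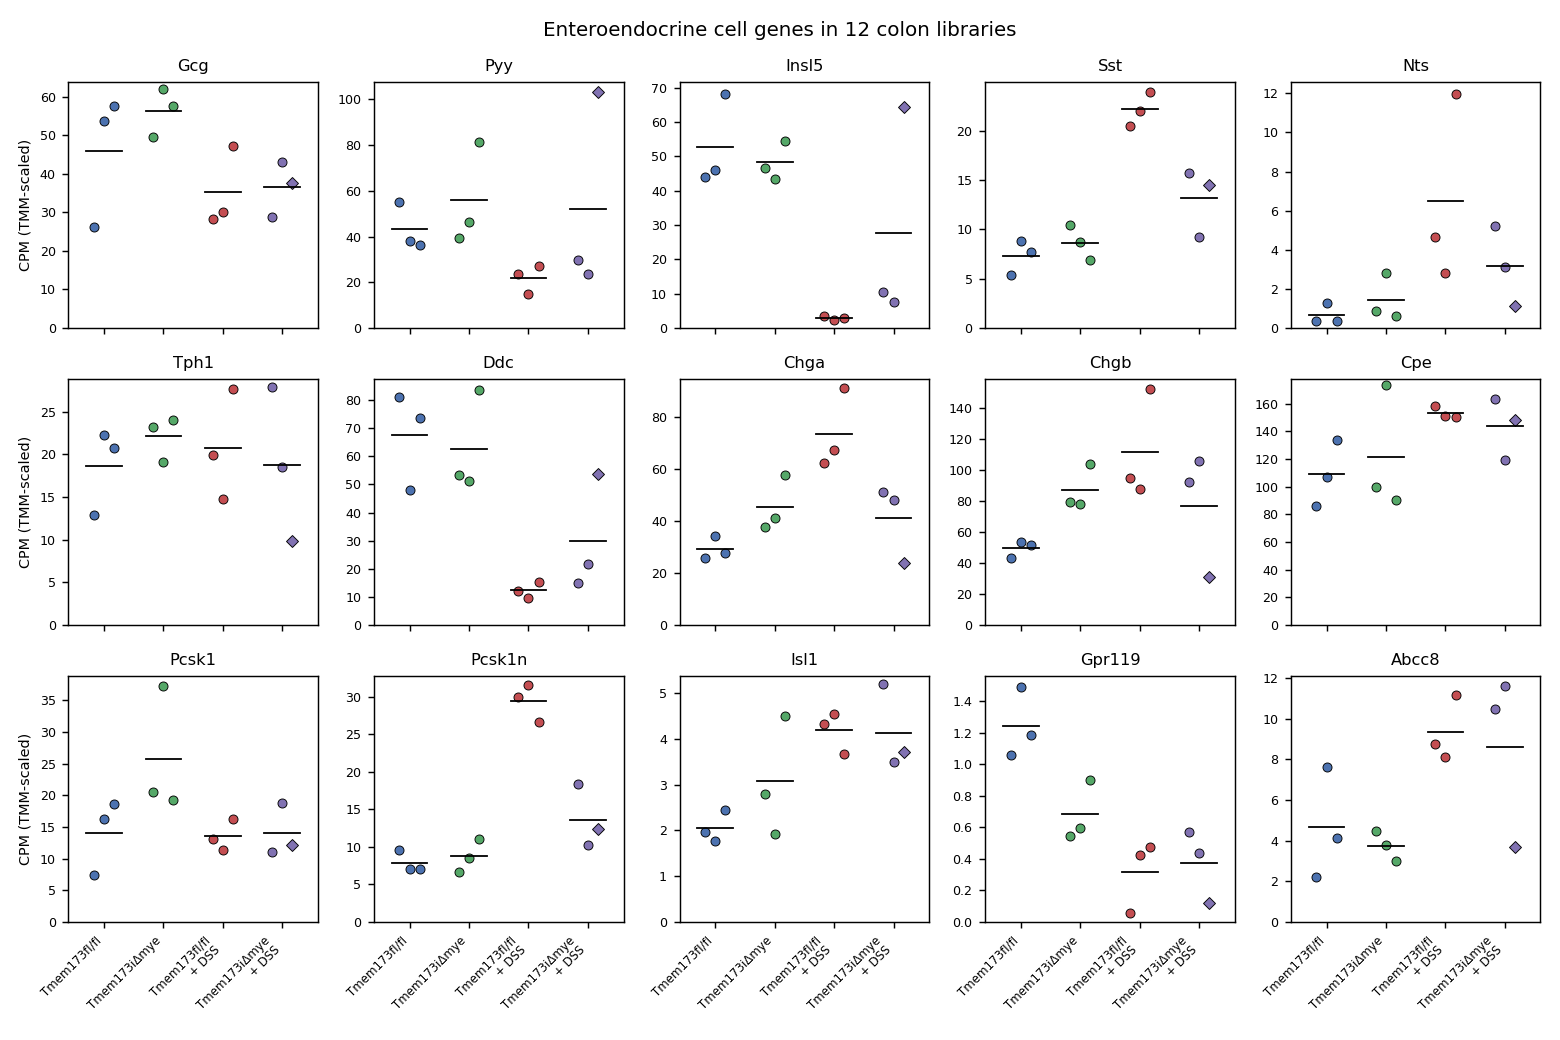
Level of 15 enteroendocrine cell genes, in TMM-scaled CPM, in each of the 12 libraries (points) with the group mean (line); the diamond is colitic Tmem173iΔmye replicate 5. Insl5 sits between 43.5 and 68.3 CPM in the untreated libraries and between 2.32 and 3.41 CPM in colitic Tmem173fl/fl libraries, and the diamond stands at 64.4 CPM.

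Sequence upstream of the start site was read for the members. RefSeq (GRCm38.p6) windows of 250 bases before to 50 after a start were at hand for 26 of the 31 members. The motif searched, on both strands, was TGACGT, which holds the half-site of the cAMP response element and was chosen after the members' values had been seen, so nothing is read from which members hold it. It was in a window of 6 of the 26 members (Chga, Chgb, Sst, Isl1, Pax6 and Pcsk1) and of 8.37% of the 27025 gene symbols with a window. Nts and Pcsk1n rose with DSS without it, and Pax6 and Pcsk1 hold it and were not called. Shown for the other 4, which rose, and for Insl5, the member that fell most, are the 100 bases before a RefSeq start (for Insl5, the more downstream of its starts), 5′ to 3′ on the gene's strand, with the motif in capitals.
Chga, chr12:102554841-102554940, strand +: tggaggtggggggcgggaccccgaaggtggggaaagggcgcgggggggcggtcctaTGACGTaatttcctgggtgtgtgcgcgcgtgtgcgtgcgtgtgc
Chgb, chr2:132781542-132781641, strand +: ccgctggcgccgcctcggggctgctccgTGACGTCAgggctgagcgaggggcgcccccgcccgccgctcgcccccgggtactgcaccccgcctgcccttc
Sst, chr16:23890845-23890944, strand −: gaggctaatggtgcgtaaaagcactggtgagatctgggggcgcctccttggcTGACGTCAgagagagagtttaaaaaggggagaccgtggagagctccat
Isl1, chr13:116309689-116309788, strand −: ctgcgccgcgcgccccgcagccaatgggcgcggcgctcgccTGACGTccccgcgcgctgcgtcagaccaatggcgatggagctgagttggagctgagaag
Insl5, chr4:103026729-103026828, strand −: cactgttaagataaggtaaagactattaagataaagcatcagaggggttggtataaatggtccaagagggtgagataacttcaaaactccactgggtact
The motif began 44 bases before the start in Chga, 72 in Chgb, 48 in Sst and 59 in Isl1. In Chgb and Sst the matches on the 2 strands overlapped and made the palindrome TGACGTCA. The deposited gene models of Chgb, Sst and Insl5 begin upstream of these RefSeq starts. A match describes the letters alone, and these libraries hold no measure of binding.

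Among the peptide hormones, 7 were tested, and with DSS 2 were called higher and 1 lower in Tmem173fl/fl mice. The shares over all genes, for this and the other kinds of member below, were 14.9% higher and 7.61% lower. Insl5, an orexigenic hormone made by L cells of the distal colon, fell most. It stood at 44.0, 45.9 and 68.3 CPM in the untreated and at 3.41, 2.32 and 2.93 CPM in the colitic Tmem173fl/fl libraries, a 17.5-fold fall (log2 fold change −4.13, SE 0.25, adjusted p = 2.41e-06). All 3 colitic libraries were below every untreated one. Pyy and Gcg, the other hormones of the same cells, moved less. Pyy, which slows gut transit and appetite, was at 55.1, 38.2 and 36.5 CPM untreated and 23.5, 15.0 and 27.0 CPM with DSS. The groups did not overlap, and its log2 fold change of −0.92 (SE 0.24, adjusted p = 0.0127) was under the fold threshold, which it passed without untreated replicate 2 or 3 (−1.01 and −1.02) or colitic replicate 3 (−1.12). Gcg was at 26.2, 53.7 and 57.5 CPM untreated and 28.2, 30.2 and 47.3 CPM with DSS, overlapping ranges with a log2 fold change of −0.31 (SE 0.29, adjusted p = 0.450).

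Sst and Nts rose. Sst, whose product restrains other hormone cells, went from 5.38, 8.80 and 7.70 CPM to 20.5, 22.0 and 24.0 CPM in colitic Tmem173fl/fl libraries, with no overlap (3.18-fold, log2 1.67, SE 0.21, adjusted p = 0.000225). Nts, neurotensin, was low untreated (0.379, 1.29 and 0.376 CPM) and reached 4.66, 2.84 and 11.98 CPM with DSS. Replicate 3 was the highest of the colitic libraries, and the groups did not overlap (9.83-fold, log2 3.30, SE 0.64, adjusted p = 0.00282). Its log2 fold change was 2.49 without colitic replicate 3 and 4.13 without untreated replicate 2, and it was called in both cases. Cck, cholecystokinin, had a log2 fold change of 1.22 with no overlap and missed the test (SE 0.49, adjusted p = 0.0784). Sct, secretin, had −0.07 (SE 0.47).

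Of the genes of amine synthesis, Ddc alone was called. It was at 81.2, 48.1 and 73.5 CPM untreated and at 12.2, 9.51 and 15.3 CPM in colitic Tmem173fl/fl libraries, a 5.24-fold fall without overlap (log2 −2.39, SE 0.24, adjusted p = 4.97e-05). Tph1, the rate-limiting enzyme of serotonin synthesis in enterochromaffin cells, was at 12.9, 22.3 and 20.7 CPM untreated and 19.9, 14.8 and 27.7 CPM with DSS. Its ranges overlapped (log2 0.22, SE 0.27, adjusted p = 0.559). Slc18a1, the vesicle transporter that loads amines into granules, had a log2 fold change of 0.63 (SE 0.38, adjusted p = 0.230). Ddc is also expressed by other epithelial cells and Tph1 by mast cells, so neither reads enterochromaffin cells alone.

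Of the 5 granule genes 3 were called higher and 0 lower, against 14.9% and 7.61% of all genes. Chga was at 25.7, 34.2 and 27.6 CPM untreated and at 62.2, 67.2 and 91.0 CPM with DSS (2.65-fold, log2 1.40, SE 0.18, adjusted p = 0.000216). Chgb was at 43.4, 53.5 and 51.9 CPM untreated and at 95.1, 87.6 and 153 CPM with DSS (2.36-fold, log2 1.24, SE 0.21, adjusted p = 0.00128). Both had every colitic library above every untreated one. Chgb was highest in colitic replicate 3, and without that library its log2 fold change was 0.93, under the fold threshold. Pcsk1n, the inhibitor of the prohormone convertase Pcsk1, was at 9.54, 7.04 and 7.07 CPM untreated and 29.95, 31.5 and 26.7 CPM with DSS, again with no overlap (3.92-fold, log2 1.97, SE 0.19, adjusted p = 3.68e-05). Its target Pcsk1, which cuts prohormones, was at 7.35, 16.3 and 18.7 CPM untreated and 13.1, 11.4 and 16.3 CPM with DSS, overlapping (log2 0.01, SE 0.31). Cpe was at 85.7, 107 and 134 CPM untreated and 158, 151 and 150.3 CPM with DSS, without overlap, but its log2 fold change of 0.56 (SE 0.17, adjusted p = 0.0284) was under the fold threshold.

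Of the 9 transcription factors, Isl1 was called. Isl1, a factor of several hormone cell types and of neurons, was at 1.97, 1.76 and 2.44 CPM untreated and at 4.33, 4.54 and 3.67 CPM with DSS (2.13-fold, log2 1.09, SE 0.29, adjusted p = 0.0138). The groups did not overlap, and the call was lost without untreated replicate 2 (log2 0.98) and without colitic replicate 1 (adjusted p = 0.0509). It was also lost with the log2 sum of the pancreatic acinar genes as a covariate (log2 0.87, adjusted p = 0.0850), an alternative added after the data were seen, and in limma on log2 FPKM (log2 0.95). Neurog3, the factor that founds the lineage, had 5, 13 and 10 counts in the untreated and 1, 0 and 4 counts in the colitic libraries. These few counts did not overlap and missed the test (adjusted p = 0.0574), and the call was made without colitic replicate 3 (adjusted p = 0.0139). Neurod1, which acts just after Neurog3, was lower in every colitic than in every untreated library without passing the test (log2 −0.98, SE 0.37, adjusted p = 0.0647). The factors Insm1, Pax6, Fev, Lmx1a, Rfx6 and Nkx2-2 had log2 fold changes from −0.29 (Nkx2-2) to 0.87 (Fev) and overlapping groups.

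Among the receptors, channels and remaining genes, Gpr119 was called. Gpr119, a receptor for lipid amides on L cells, was at 1.06, 1.49 and 1.19 CPM untreated and 0.0542, 0.426 and 0.476 CPM with DSS (3.70-fold lower, log2 −1.89, SE 0.62, adjusted p = 0.0377). The groups did not overlap. This rests on 14, 22 and 19 counts against 1, 9 and 7, and the adjusted p was 0.0591, 0.105 and 0.0856 without untreated replicates 1, 2 and 3 and 0.0846 without colitic replicate 1. Abcc8, the regulatory subunit of the ATP-sensitive potassium channel, was at 2.20, 7.65 and 4.13 CPM untreated and 8.77, 8.09 and 11.2 CPM with DSS. It did not overlap and missed the test narrowly (log2 1.07, SE 0.38, adjusted p = 0.0522), and it was called without untreated replicate 2 (adjusted p = 0.00728). Ffar1, the long-chain fatty acid receptor, had a log2 fold change of 0.86 (SE 0.53, adjusted p = 0.245) and was called without colitic replicate 3 (adjusted p = 0.0239). Cryba2 had 1.41 on 2 to 11 counts per library, Vwa5b2 had 0.06, and Gfra3, a receptor of the GDNF family, had −0.21.

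Markers of other cells moved in the same comparison. All 12 enteric neuron markers were called higher by DSS in Tmem173fl/fl mice, and their sum went from 114 to 139 CPM untreated to 390 to 431 CPM. None of them was at 0; Chat, the lowest of the 12, was at 0.984 to 1.63 CPM untreated and 2.98 to 3.79 CPM colitic. All 10 epithelial markers had negative log2 fold changes and 6 were called lower (sum 15310 to 19340 CPM untreated, 6070 to 10450 CPM colitic). Relative to the mean of those epithelial markers, whose log2 level differed by −1.12, the log2 difference was 2.44 for Chga, 3.01 for Pcsk1n, 0.12 for Pyy, −1.32 for Ddc and −3.02 for Insl5. Neurog3 (−0.84) and Gpr119 (−0.77) were the only other members below the epithelial change. Pyy, Gcg (0.78), Neurod1 (0.12), Sct (0.88), Lmx1a (0.98), Rfx6 (0.95), Gfra3 (0.77) and Nkx2-2 (0.65) changed from negative to positive on this scale. Without it 18 members had positive and 12 negative log2 fold changes. Of 6 distal Hox genes, 3 were called lower and 0 higher, with 4 negative and 2 positive log2 fold changes. Hoxb13, a gene of the distal colon, was at 139 to 252 CPM untreated and 0.613 to 4.93 CPM colitic (log2 −6.45, SE 0.67, adjusted p = 6.56e-05). Hoxd10 and Hoxd11 went the other way, from means of 1.7 and 1.5 CPM untreated to 3.9 and 2.7 CPM colitic. Fibroblast markers were called higher in 6 of 6, mast cell markers in 4 of 9 tested, and smooth muscle markers in 0 of 6. Of the islet beta cell genes, Ins1, Ins2 and Mafa were tested and all 3 were called higher (sum of the 6 genes 0 to 0.303 CPM untreated, 0.953 to 4.64 CPM colitic). Ins1 and Ins2 were at 0 CPM in colitic replicate 3, where the sum of 0.953 CPM was Mafa alone. The 10 pancreatic acinar genes had a median log2 fold change of 1.67 and 0 were called (sum 107 to 4166 CPM untreated, 650 to 9929 CPM colitic). Islets also express Chga, Sst, Pcsk1n and Isl1. With the pancreatic acinar sum as a covariate Isl1 and Gpr119 lost their call. Beyond the pancreatic and Hoxd covariates, the part of these cells, of the distal position or of the fall in epithelium in the members' differences was not tested.

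**Figure D2:**
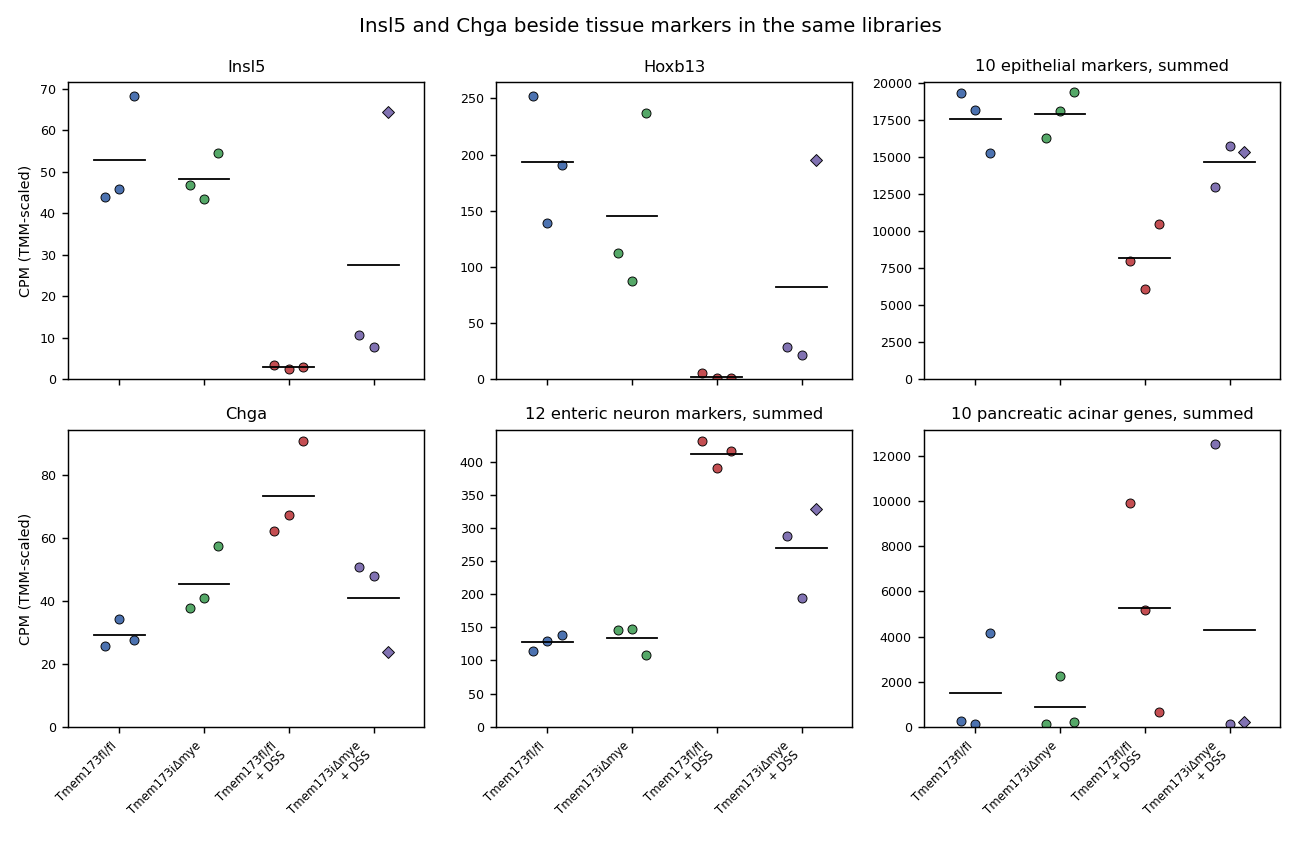
Insl5, Chga, Hoxb13 and the summed epithelial, enteric neuron and pancreatic acinar markers, in TMM-scaled CPM, in each of the 12 libraries (points; diamond, colitic Tmem173iΔmye replicate 5) with group means (lines). Hoxb13 and Insl5 are both near their untreated levels in the diamond library, at 196 and 64.4 CPM.

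Genes of related kinds were counted from further lists, which are not particular to enteroendocrine cells. Over all genes 14.9% were called higher and 7.61% lower. Of 6 other peptide hormone genes tested, 4 were higher with DSS in Tmem173fl/fl mice, led by Penk, proenkephalin (log2 3.17, SE 0.14, adjusted p = 6.98e-07), and Gal, galanin (2.39, SE 0.23, adjusted p = 4.26e-05). Tac1, the substance P precursor, rose as well (1.79, SE 0.28, adjusted p = 0.000804), and Iapp was called at under 1 CPM. Enteric neurons make Penk, Gal and Tac1 too. Of 18 other granule genes 11 were higher and 0 lower, with Syt13 at 2.26, Ptprn at 2.09, Pcsk2 at 1.963 and Cplx2 at 1.37 on the log2 scale. Of 15 nutrient sensors and channels 6 were higher, among them Trpa1, an irritant channel of enterochromaffin cells (4.31, SE 0.39, adjusted p = 2.89e-05), the calcium channel Cacna1d (2.86) and the bile acid receptor Gpbar1 (2.85). Other transcription factors split, with 3 of 12 higher (Etv1, Sox4 and Hhex) and 3 lower (Foxa2 at −2.57, Pdx1 at −2.33 and Atoh1, which sets the secretory lineage, at −1.26). Among 14 receptors and transporters that answer these hormones, 5 were higher (Htr3a, Cckar, Npy2r, Htr7 and Glp2r). The serotonin receptor Htr4 (−2.995) and the serotonin transporter Slc6a4 (−2.17) were lower.

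**Figure D3:**
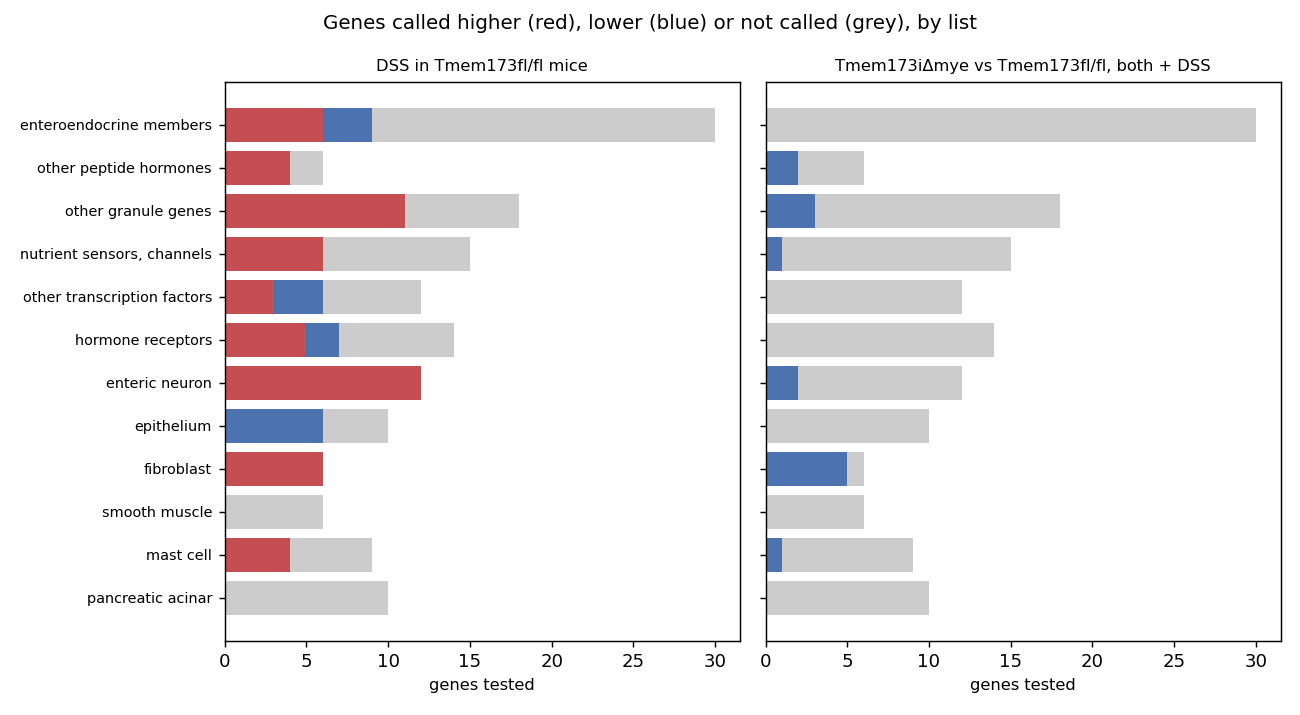
Number of genes called higher (red), lower (blue) or not called (grey) by list, for DSS in Tmem173fl/fl mice (left) and for Tmem173iΔmye against Tmem173fl/fl mice, both with DSS (right); bar length is the number of genes tested. On the left 11 of 18 other granule genes and 12 of 12 enteric neuron markers are red, and on the right 0 of the 30 members are coloured.

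DSS in Tmem173iΔmye mice gave no called member. Against 2.08% of all genes called, 0 of 30 members passed edgeR, 7 had an unadjusted p under 0.05 (15.6% of all genes), and DESeq2 called 1, Ffar1 (6.27% of the genes it gave an adjusted p). The median member had a log2 fold change of −0.17, against 0.02 over all genes. The untreated libraries in this comparison are other libraries than in the comparison above, and colitic replicate 5 stood apart from replicates 1 and 2 for several members.

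Insl5 shows it most. It was at 46.7, 43.5 and 54.6 CPM in the untreated and at 10.5, 7.71 and 64.4 CPM in the colitic Tmem173iΔmye libraries, so that replicates 1 and 2 lay below every untreated library and replicate 5 above all of them. With the 3 libraries the log2 fold change was −0.81 (SE 0.64, adjusted p = 0.595), and without replicate 5 it was −2.37 (adjusted p = 0.000244). Ddc was at 53.2, 51.1 and 83.8 CPM untreated and 14.9, 21.6 and 53.6 CPM with DSS. Replicate 5 was within the untreated range, with a log2 fold change of −1.06 (SE 0.42, adjusted p = 0.249) over all and −1.76 (adjusted p = 0.00307) without it. Pyy was at 39.5, 46.4 and 81.5 CPM untreated and 29.6, 23.5 and 103 CPM with DSS, the last being the highest of the 12 libraries, with log2 −0.11 (SE 0.50) over all and −1.05 (adjusted p = 0.0607) without replicate 5.

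The granins Chga and Chgb ran the other way in that library. Chga was at 37.6, 40.9 and 57.6 CPM untreated and 50.9, 47.8 and 23.9 CPM with DSS, and Chgb at 79.6, 78.3 and 104 CPM and 92.5, 106 and 31.1 CPM. In both genes replicate 5 was the lowest of the 12 libraries, and their log2 fold changes were −0.16 (SE 0.29) and −0.19 (SE 0.37). Tph1, at 23.2, 19.1 and 24.0 CPM untreated and 27.9, 18.5 and 9.89 CPM with DSS, was also lowest of the 12 in replicate 5, as was Sct. Of the 30 members, replicate 5 was the lowest library for 4 and the highest for 2 (Pyy and Pax6), and it fell within the range of the 6 untreated libraries for 20.

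The groups did not overlap for 4 of the 30 members, against 21.5% of all genes. Gcg, Pcsk1 and Sct were lower in every colitic than in every untreated Tmem173iΔmye library and Lmx1a was higher, and none of these passed the test. Gcg was at 49.6, 61.9 and 57.6 CPM untreated and 28.8, 43.1 and 37.6 CPM with DSS (log2 −0.63, SE 0.21, adjusted p = 0.176). Pcsk1 was at 20.4, 37.4 and 19.2 CPM and then 10.97, 18.7 and 12.2 CPM (log2 −0.88, SE 0.32, adjusted p = 0.212). Sct was at 2.85, 4.43 and 4.21 CPM and then 1.64, 1.99 and 0.485 CPM (log2 −1.48, SE 0.51, adjusted p = 0.185). Lmx1a, a transcription factor, had a log2 fold change of 0.52 (SE 0.42, adjusted p = 0.611). Sst was at 10.4, 8.68 and 6.85 CPM untreated and 15.7, 9.27 and 14.4 CPM with DSS (log2 0.60, SE 0.30), and Pcsk1n at 6.67, 8.50 and 11.1 CPM and 18.3, 10.3 and 12.3 CPM (log2 0.64, SE 0.31). Both had 2 of 3 colitic libraries above every untreated one, with adjusted p = 0.372 and 0.366.

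Nts was at 0.849, 2.81 and 0.601 CPM untreated and 5.20, 3.11 and 1.15 CPM with DSS (log2 1.14, SE 0.67). Isl1 was at 2.79, 1.92 and 4.51 CPM and then 5.20, 3.48 and 3.70 CPM (log2 0.42, SE 0.40). Cpe was at 99.6, 173 and 90.1 CPM and then 163, 120 and 148 CPM (log2 0.24, SE 0.26). None of these 3 separated the groups. Abcc8 was at 4.49, 3.77 and 3.005 CPM untreated and 10.5, 11.6 and 3.70 CPM with DSS (log2 1.19, SE 0.43, adjusted p = 0.212, and 0.0105 without replicate 5). Gpr119 was at 0.546, 0.599 and 0.901 CPM and then 0.570, 0.435 and 0.121 CPM (log2 −0.87, SE 0.68). Neurog3 had 19, 0 and 19 counts untreated and 0, 0 and 1 counts with DSS, so that untreated replicate 2 was as low as the colitic libraries. Ffar1 had a log2 fold change of 1.88 (SE 0.61, adjusted p = 0.163) and was called without colitic replicate 2 (adjusted p = 0.0437).

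Markers of other cells moved in this comparison as well. The enteric neuron sum was 108 to 148 CPM untreated and 195 to 328 CPM colitic (1 of 12 called, and 10 of 12 higher in every colitic library), and the fibroblast sum 1141 to 1455 and 2297 to 3367 CPM (1 of 6 called, and 6 of 6 higher in every colitic library). The epithelial sum was 16290 to 19400 CPM untreated and 12970 to 15780 CPM colitic, with 0 of 10 called. Their part in the members' differences was not tested.

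**Figure D4:**
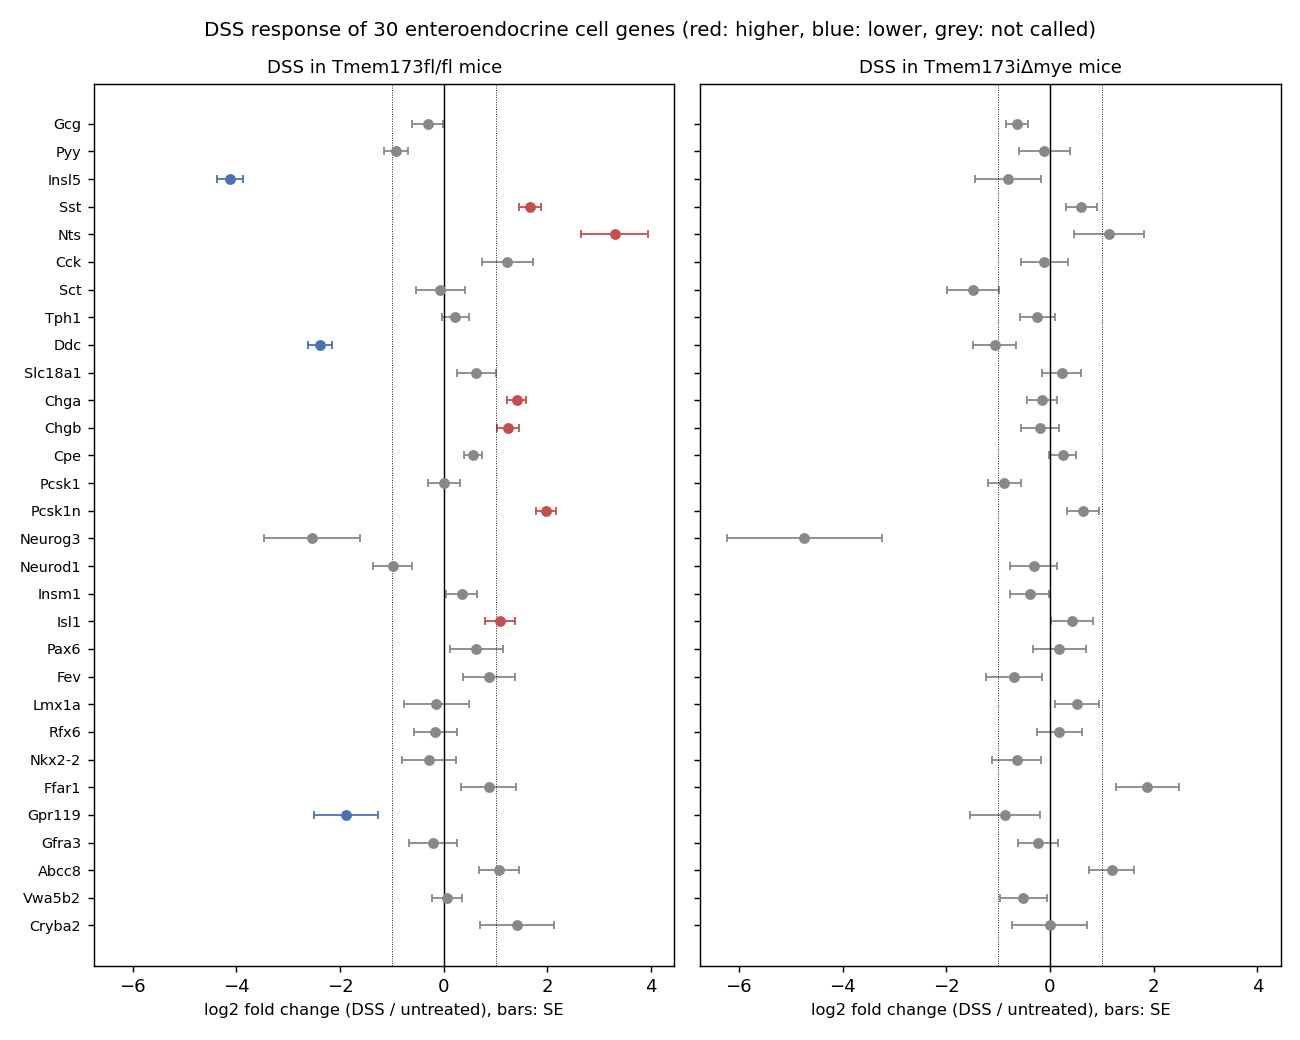
Log2 fold change of DSS against untreated (points) with its SE (bars) for the 30 members tested, in Tmem173fl/fl (left) and Tmem173iΔmye mice (right), ordered by role; dotted lines mark a log2 fold change of 1 either way. On the left 6 members are called higher and 3 lower, on the right none is called, and the difference between the panels passes the interaction test for Insl5 alone.

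The interaction tested whether the DSS effect differed between genotypes. Of the 30 members 1 was called, against 2.55% of all genes, and 6 had an unadjusted p under 0.05 (18.1% of all genes). DESeq2, which gave Insl5 no p, called 2 members and 8% of the genes it gave an adjusted p. The member called by edgeR was Insl5, whose DSS effect was 3.39 higher on the log2 scale in Tmem173iΔmye mice (SE 0.83, adjusted p = 0.0476). That call sits at the threshold. Without replicate 5 the difference was 1.78 (adjusted p = 0.0146), and in the libraries of male pattern alone it was 1.63 (adjusted p = 0.0454). Leaving out any untreated library, or any colitic Tmem173fl/fl library, raised the adjusted p to between 0.0755 and 0.112. With the log2 sum of Hoxd10 to Hoxd13 as a covariate the difference was 2.28 (adjusted p = 0.0951), and with that of the pancreatic acinar genes it was 3.26 (adjusted p = 0.0722). Chga (−1.49, SE 0.38, adjusted p = 0.0523) and Pcsk1n (−1.26, SE 0.36, adjusted p = 0.0771) came next. The genotype difference of Chga was 0.65 in untreated and −0.85 in colitic mice, and that of Pcsk1n 0.16 and −1.11. Chga was called without colitic Tmem173iΔmye replicate 1 or 5 (adjusted p = 0.0187 and 0.0458), and Pcsk1n without replicate 1 (adjusted p = 0.0131), when Ddc was called as well (1.72, adjusted p = 0.0427). Of the markers, 3 of 12 of enteric neurons and 4 of 6 of fibroblasts were called lower in the interaction, and 1 of 10 of epithelium and 2 of 6 distal Hox genes (Hoxb13 at 5.69 and Hoxa13 at 1.61) were called higher. Their part in the Insl5 difference was not tested beyond the Hoxd10 to Hoxd13 covariate.

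Colitic Tmem173iΔmye and Tmem173fl/fl mice were then compared directly. These libraries also entered the DSS comparisons. None of the 30 members was called by edgeR (over all genes 2.81% were called, 0.822% higher and 1.99% lower), 7 had an unadjusted p under 0.05 (20.2% of all genes) and DESeq2 called 3 (8.64% of the genes it gave an adjusted p). The groups did not overlap for 5 members (26.8% of all genes): Chga, Sst and Pcsk1n were lower and Insl5 and Neurod1 higher in every Tmem173iΔmye library. Insl5 was 9.53-fold higher on the fitted mean (log2 3.25, SE 0.78, adjusted p = 0.0633). Without replicate 5 its log2 difference was 1.65 (adjusted p = 0.0411), and without replicate 1 it was 3.64 (adjusted p = 0.0416). Pcsk1n had −1.11 (SE 0.26, adjusted p = 0.0583, and 0.0194 without replicate 1). Chga had −0.85 (SE 0.29, adjusted p = 0.153) and Sst −0.76 (SE 0.25, adjusted p = 0.147). Ddc (1.28, SE 0.45) and Pyy (1.25, SE 0.53) had larger means in Tmem173iΔmye mice, and differences of 0.55 and 0.28 without replicate 5.

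The markers moved here too. The enteric neuron sum was 195 to 328 CPM in colitic Tmem173iΔmye against 390 to 431 CPM in colitic Tmem173fl/fl libraries (2 of 12 called lower), and the epithelial sum 12970 to 15780 against 6070 to 10450 CPM (0 of 10 called). Fibroblast markers were called lower in 5 of 6 (median log2 −1.54, sum 2297 to 3367 against 7967 to 10150 CPM). The 3 islet beta cell genes tested all had negative differences, and 0 were called (median log2 −2.21). Of the distal Hox genes, 2 of 6 were called higher. Relative to the mean of the epithelial markers, the log2 difference was −1.74 for Chga, −1.62 for Sst and −1.98 for Pcsk1n. It was 1.73 for Insl5 and −0.16 for Neurod1, which changed sign. On that scale only Insl5, Ddc and Pyy were positive. Hoxb13 was at 28.6, 21.1 and 196 CPM in replicates 1, 2 and 5. With the log2 sum of Hoxd10 to Hoxd13 as a covariate, an alternative added after the data were seen, the Insl5 difference was 1.63 (adjusted p = 0.0431), that of Ddc 0.63 and that of Pyy 0.27. In the further lists, 2 of 6 peptide hormones were called lower in colitic Tmem173iΔmye mice (Penk, −1.18, and Gal, −1.39). So were 3 of 18 granule genes (Vgf, −1.99, Ptprn, −1.42, and Syt13, −1.51) and 1 of 15 sensors and channels (Cacna1d, −1.55). Of the 12 transcription factors and 14 hormone receptors and transporters, 0 were called. These 6 genes also rose with DSS in Tmem173fl/fl mice, a comparison that shares the colitic Tmem173fl/fl libraries. Penk, for one, was at 60.4, 66.6 and 60.9 CPM in colitic Tmem173fl/fl and 26.7, 24.9 and 31.7 CPM in colitic Tmem173iΔmye libraries. Beyond the Hoxd10 to Hoxd13 and pancreatic covariates, the part of neurons, fibroblasts, islet cells, epithelium or position in the members' differences was not tested.

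Without DSS the genotypes gave 0 called members, as 0% of all genes were called, with 4 members at an unadjusted p under 0.05 (2.99% of all genes) and 0 called by DESeq2 (0.0258% of the genes it gave an adjusted p). Those at an unadjusted p under 0.05 were Chgb (log2 0.82, SE 0.17), Chga (0.65, SE 0.19), Pcsk1 (0.87, SE 0.32) and Ffar1 (−0.85, SE 0.39), each with adjusted p = 1. Chga, Chgb and Pcsk1 were higher in every untreated Tmem173iΔmye than in every untreated Tmem173fl/fl library by the values above, and Ffar1 and Gpr119 were lower in every one. These were 5 of the 30 members, and over all genes the groups did not overlap for 7.35%. Of the 30 members 22 had a positive difference, with a median of 0.29 and a median close to 0 over all genes. The members' summed level was 426 to 537 CPM in untreated Tmem173fl/fl, 509 to 635 CPM in untreated Tmem173iΔmye, 483 to 644 CPM in colitic Tmem173fl/fl and 471 to 547 CPM in colitic Tmem173iΔmye libraries, overlapping ranges in which the falls of Insl5 and Ddc stand beside the rises of the granule genes.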

How the data were processed

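RNA of total colon was measured by polyA RNA sequencing in 12 libraries, 3 in each of 4 groups, with groups and replicate numbers read from the sample titles. Per the labels' processing notes the authors used CASAVA 1.8, fastp, HISAT2 2.0.5 and featureCounts 1.5.0-p3 on GRCm38 (mm10); the use of strand was not given in the sources used here. The authors deposited whole-number counts per gene and FPKM for each library, with Ensembl identifiers. They also deposited group means, log2 fold changes, p-values and adjusted p-values of their DESeq2 1.20.0 comparisons, which were not used.

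The 31 members and all other lists were chosen by name with earlier results of these data known. Genes reaching 0.1 FPKM in 3 or more libraries were tested with edgeR 4.0.16 (quasi-likelihood, TMM scaling, R 4.3.3), with Benjamini-Hochberg adjustment over all 24102 genes. Each pairwise fit held the 6 libraries compared, and the interaction fit held 12. Calls needed an adjusted p under 0.05 and a log2 fold change of 1 or more in size. SE is the log2 fold change divided by the square root of F. Values in every library are given for the 12 members with the highest mean CPM and for each called member, and up to 4 genes of other lists are named by smallest p, plus those counted in groups of 5 or fewer or called between colitic genotypes, named after their values were seen. Sequences came from RefSeq windows on GRCm38.p6.

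Depth was 13823237 to 18718915 counts per library. Replicates differed beyond sampling noise in every pair. The sources do not tie each library to 1 animal, so p-values measure the spread between these libraries. Same-numbered libraries did not deviate together (r −0.172 to 0.202 over 15 pairs), so the numbers were not used as pairs in the main tests. Alternatives were other scalings and filters, DESeq2 1.42.0, limma 3.58.1 on log2(FPKM + 0.1), other thresholds, a replicate block, 1 fit of all libraries, libraries of male pattern only, each library left out, and, added after the data were seen, pancreatic and Hoxd covariates. The tests were tried on simulated data.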

Additional observations from a re-analysis of the deposited data

Results flagged for a closer look

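The DSS effect on Insl5 differed between the genotypes by the interaction test of edgeR. It was 3.39 higher on the log2 scale in Tmem173iΔmye than in Tmem173fl/fl mice (SE 0.83, adjusted p = 0.0476, with a range of 0.000782 to 0.134 over the alternatives). All 3 colitic Tmem173fl/fl libraries were at 2.32 to 3.41 CPM, and the colitic Tmem173iΔmye libraries were at 10.5, 7.71 and 64.4 CPM, the last being replicate 5, where Hoxb13 stood at 196 CPM. Replicate 5 was also the only colitic library of female Xist pattern, so sex and position cannot be told apart among the colitic libraries. Without replicate 5 the difference was 1.78 (adjusted p = 0.0146), and with the Hoxd10 to Hoxd13 sum as a covariate it was 2.28 (adjusted p = 0.0951).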

How the results depend on the processing

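For DSS in Tmem173fl/fl mice the count of members called was 9 and lay between 7 and 12 over the 19 alternatives (7 to 11 with a library left out). Chga, Ddc, Insl5, Nts, Pcsk1n and Sst kept their call in all 19, Chgb lost it in 1, Isl1 in 4 and Gpr119 in 7, and none changed sign. In this comparison male pattern only and leaving out untreated replicate 3 hold the same libraries, and both are counted. Between untreated genotypes every alternative gave 0. For DSS in Tmem173iΔmye mice the count of 0 became 2 with no filter, 1 in DESeq2, 5 with unadjusted p and fold, 3 with the replicate block, 2 in libraries of male pattern only, 1 with the Hoxd covariate and 0 to 3 with a library left out (1 without colitic replicate 2, 3 without replicate 5). Between colitic genotypes the count of 0 became 1 with library totals alone, 2 with no filter, 3 in DESeq2, 5 with unadjusted p and fold, 1 with the replicate block, 2 in 1 fit of all 12 libraries, 1 in male pattern only, 1 with the Hoxd covariate and 0 to 2 with a library left out (2 without replicate 1, 1 without replicate 5). Here male pattern only and without replicate 5 hold the same libraries. The interaction count of 1 became 4 with no filter, 0 with filterByExpr, 2 in DESeq2 (which gave Insl5 no p), 0 in limma, 5 with unadjusted p and fold, 0 with either covariate and 0 to 4 with a library left out (4 without colitic Tmem173iΔmye replicate 1). The Insl5 interaction lost its call in 14 of 23 alternatives with a p, and its log2 value was 1.63 to 3.83 over all 23. Library totals alone was 1 of those 14. The replicate block gave 10 members for DSS in Tmem173fl/fl mice and turned the median difference between colitic genotypes from −0.11 to 0.18. Colitic replicates 3 and 5 have no partner of the same number in that block, so the blocked difference rests on replicates 1 and 2. Neurog3 and Gpr119 rest on 0 to 22 counts per library, and 3 libraries per group limit every comparison.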
